A study of Homo sapiens with 3 samples.

Results

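Gene expression was compared for a set of genes that load amino acids onto transfer RNA, make or import amino acids, or respond to stress in protein synthesis and in the endoplasmic reticulum (ER). The set was chosen by gene name: 17 cytosolic aminoacyl-tRNA synthetases, 6 regulators of the integrated stress response, 6 enzymes of asparagine, serine, glycine and folate metabolism, 3 amino acid transporters and 5 genes of the ER chaperone and unfolded protein response. Of these 37 genes, 34 were measured by 47 probe sets that list that gene alone, of 11963 named genes and 19070 such probe sets on the array. MARS1 and QARS1, whose probe sets also list a microRNA, and SESN2 were not analysed here as named genes. All 34 genes lay above the highest probe set for Bacillus subtilis transcripts, used as a background scale, on all 3 arrays. Of all 11963 named genes 75.01% did so, so the limit is a low one.

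The cells were HEK293T, an established human embryonic kidney line with the large T antigen of SV40. All were transfected with dCas9VP160, in which Cas9 without nuclease activity is fused to the VP160 activation domain, using 2 µg of DNA in all and 6 µl of Fugene HD per well. By their labels the groups differed only in the guide RNA: sgTetOmut, a mutated version of sgTetO with no target, sgTetO, directed at the TetO promoter, or sgIL1RN1~3, guides directed at the promoter of IL1RN. The first and second served as controls. Each group was 1 array, so there is no replicate error, no test between guides and no p-value, and the distance between the control arrays is the scale set beside each difference. For the same reason guide, culture, RNA preparation and array cannot be told apart. All arrays shared the transfection and the activator. A response common to all 3 is therefore not visible in these comparisons, and untransfected cells were not analysed here. The labels give neither the time after transfection nor the share of cells transfected, and in RNA from a whole culture a change in few cells and a smaller change in all of them cannot be told apart.

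Aminoacyl-tRNA synthetases join each amino acid to its transfer RNA. When charging fails, when the ER is overloaded or when double-stranded RNA or haem shortage is sensed, kinases phosphorylate the initiation factor eIF2, which slows most translation and favours translation of the transcription factor ATF4. ATF4 activates DDIT3 (also called CHOP), TRIB3, CHAC1, ATF3, ASNS, serine synthesis genes, amino acid transporters and several cytosolic synthetases. The unfolded protein response, through ATF6 and spliced XBP1, raises ER chaperones such as HSPA5. ATF4 is controlled largely at translation and XBP1 by splicing, so an array of transcript levels reads their targets more directly than the factors themselves.

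RefSeq promoters (GRCh38.p14, 250 bases before to 50 bases after each annotated start) were found for 31 of the 37 genes, as 45 promoters. They were searched on both strands for TGATGNAA, the core of the amino acid response element bound by ATF4, for ER stress element I (CCAAT and CCACG with 9 bases between them), for ER stress element II (ATTGG and CCACG with 1 base between them) and for an interferon response core (GAAA repeated with 2 bases between). HERPUD1 held both TGATGNAA and ER stress element II, 176 and 117 bases before its start, so that the matches did not overlap. Among all 35116 promoters of the table, 3.62% held the first, 0.0769% the second, 0.0541% the third and 3.57% the fourth. By gene, TGATGNAA was present in 12 of the 31 listed genes (38.7%), among them 7 of 14 synthetases, against 4.46% of 27305 genes. In 7 of the 12 the match lay before the start, in CARS1 and MARS1 it spanned the start, and in NARS1, TARS1 and SLC3A2 it lay after it. ER stress element I was present in HSPA5, HSP90B1 and XBP1, element II in HERPUD1, and the interferon core in WARS1. A match is a string of letters and no measured binding site. The genes were chosen by name, many of them as ATF4 targets, so the higher share of TGATGNAA is no independent result. Sequence outside these windows was not searched. The following stretches are shown because they carry these motifs in genes on which the results turn, each 5′ to 3′ on the gene's own strand, with the match in capitals.
AARS1: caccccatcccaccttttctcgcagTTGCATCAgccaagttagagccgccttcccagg
ATF3: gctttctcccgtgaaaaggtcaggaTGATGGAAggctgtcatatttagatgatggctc
ASNS: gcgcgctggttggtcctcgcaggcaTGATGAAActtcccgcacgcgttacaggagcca
CHAC1: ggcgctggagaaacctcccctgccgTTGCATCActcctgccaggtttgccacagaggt
HSPA5: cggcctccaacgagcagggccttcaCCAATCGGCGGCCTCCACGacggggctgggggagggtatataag
XBP1: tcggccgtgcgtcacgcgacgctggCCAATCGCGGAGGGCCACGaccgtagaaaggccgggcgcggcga
HERPUD1: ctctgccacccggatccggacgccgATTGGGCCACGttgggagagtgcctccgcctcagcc
WARS1: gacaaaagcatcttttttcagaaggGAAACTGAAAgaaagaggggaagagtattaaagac

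These stretches lie at chr16:70289661-70289718 (minus strand) for AARS1, chr1:212565191-212565248 (plus) for ATF3, chr7:97872444-97872501 (minus) for ASNS and chr15:40953237-40953294 (plus) for CHAC1. Those of HSPA5, XBP1, HERPUD1 and WARS1 lie at chr9:125241366-125241434 (minus), chr22:28800578-28800646 (minus), chr16:56932000-56932060 (plus) and chr14:100375368-100375427 (minus). In AARS1 and CHAC1 the match reads as the reverse complement, TTGCATCA, and began 187 and 209 bases before the start. In ASNS it began 68 bases before the start. ATF3 has a pair of annotated starts, and the match began 191 bases before the more upstream one. WARS1 likewise has a pair of starts, and its match began 55 bases before the more downstream one.

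The comparison asks how expression of these genes differed between cells given different guides. No listed gene was 1.5-fold apart from both other arrays in either direction on any of the 3 arrays. On the sgIL1RN1~3 array 0 of 34 genes were 1.5-fold above both controls and 0 below, where 0.719% and 0.568% of all 11963 genes were. On sgTetO the shares of all genes were 0.109% above and 0.092% below, and on sgTetOmut 0.619% and 0.125%. With shares this small, a count of 0 among 34 genes says little about these genes. At a smaller margin of 0.25 log2 units (1.19-fold), 6 of 34 lay above both controls, where 8.89% of all genes did: SARS1, AARS1, PSAT1, ATF3, WARS1 and SLC3A2. None of the 34 lay below both by that margin, where 7.18% of all genes did. The other 28 genes, with ATF4, DDIT3, TRIB3, CHAC1 and ASNS among them, stayed inside it on at least 1 side. By any margin, 16 of 34 genes were highest on sgIL1RN1~3, where 37.4% of all genes were, and 10 were lowest, where 33.6% were.

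**Figure D1:**
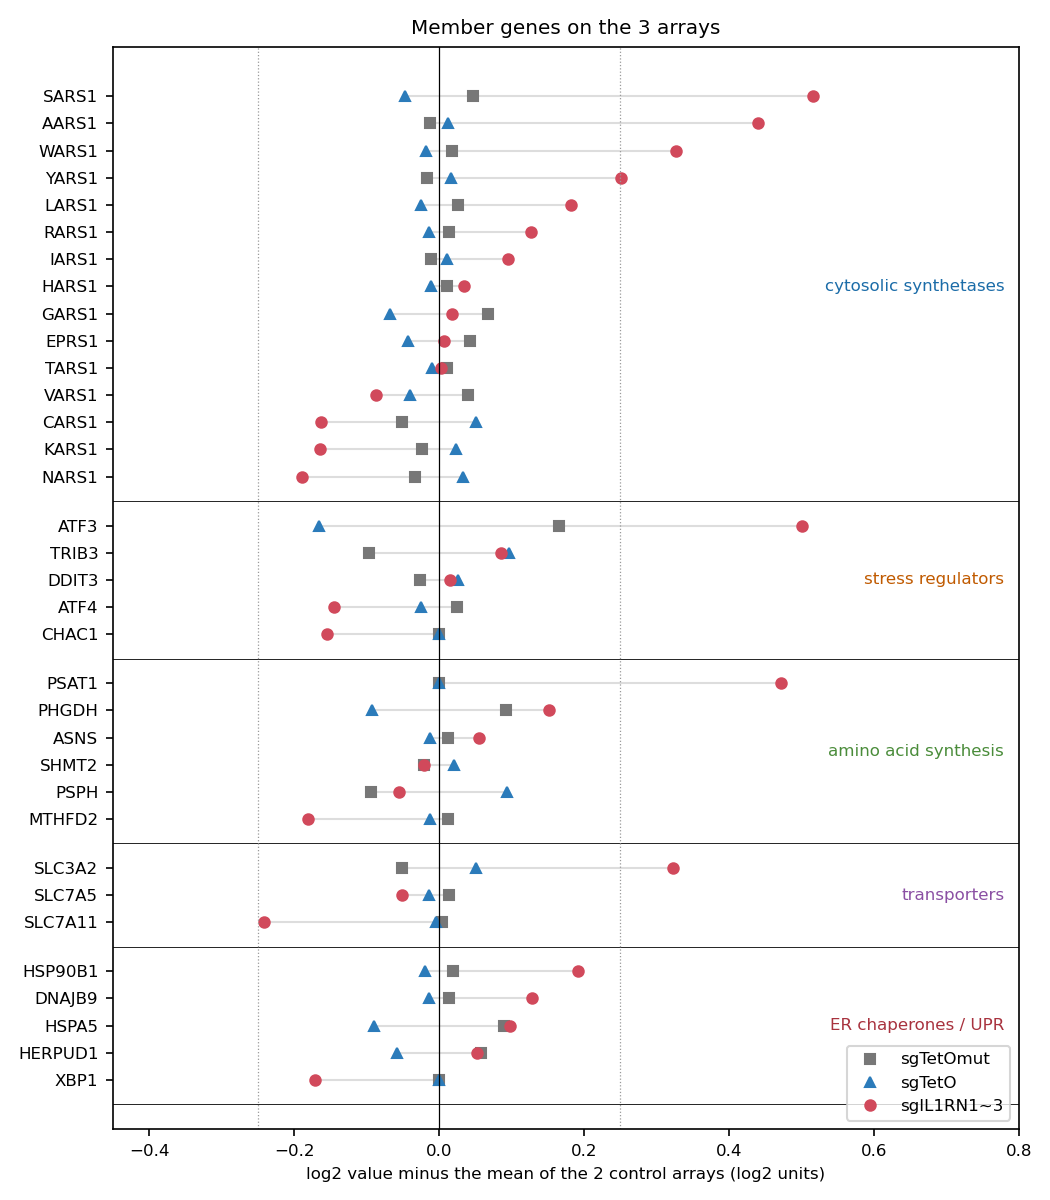
Log2 value of each of the 34 genes on each array, minus the mean of the sgTetOmut and sgTetO arrays, by class. Each point is 1 array, dotted lines mark 0.25 log2 units, and SARS1, ATF3, PSAT1 and AARS1 are furthest to the right on sgIL1RN1~3, at 0.52, 0.50, 0.47 and 0.44.

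Of the cytosolic synthetases, 3 of 15 measured lay at least 0.25 log2 units above both controls on sgIL1RN1~3, where 8.89% of all genes did. SARS1, which charges the serine transfer RNA, had log2 values of 9.45 with sgTetOmut, 9.35 with sgTetO and 9.92 with sgIL1RN1~3, so that the last was 1.43-fold above the mean of the controls. AARS1, the alanine enzyme, read 8.84, 8.87 and 9.29 in the same order, 1.36-fold above that mean. WARS1, the tryptophan enzyme, read 8.27, 8.23 and 8.58. In all 3 genes the control values differed by under 0.1 log2 units, and the sgIL1RN1~3 value stood apart. YARS1, the tyrosine enzyme, followed at 9.06, 9.10 and 9.33, a difference of 0.24 and 0.27 from sgTetO and sgTetOmut. Across the whole array, 1.83% of genes lay as far above both controls as SARS1, 2.47% as far as AARS1 and 5.93% as far as WARS1.

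By the sets that stand for them, the remaining synthetases did not follow these. The sets that stand for LARS1, RARS1, IARS1 and HARS1, for leucine, arginine, isoleucine and histidine, were highest on sgIL1RN1~3 by 0.16, 0.11, 0.08 and 0.02 log2 units. Those for GARS1, EPRS1 and TARS1, for glycine, glutamate with proline, and threonine, lay between the control values. NARS1, the asparagine enzyme, read 12.06 with sgTetOmut, 12.12 with sgTetO and 11.90 with sgIL1RN1~3. The sets that stand for KARS1 (lysine), CARS1 (cysteine) and VARS1 (valine) were also lowest on sgIL1RN1~3, by 0.14, 0.11 and 0.05 log2 units. Each of these genes has another set on the other side of the controls' mean. With the mean of all sets, KARS1, CARS1 and VARS1 differed from that mean by 0.004, 0.15 and 0.01, and EPRS1 by 0.22. The median difference over the 15 synthetases was 0.03 log2 units from the mean of the controls, with a range from -0.19 to 0.52. The median over all named genes was 0.01. With the mean of all probe sets of each gene in place of 1 set, the median of the synthetases was 0.13 and that of all genes remained 0.01.

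Different probe sets of a gene did not always agree on that array. CARS1 is represented by the set 212971_at, at 9.59, 9.69 and 9.48 on sgTetOmut, sgTetO and sgIL1RN1~3, while its other set, 202402_s_at, read 7.38, 7.38 and 7.84. The first was lowest and the second highest on the same array. EPRS1 had differences from the mean of the controls of 0.01, 0.20 and 0.44 log2 units in its 3 sets. SHMT2, a mitochondrial enzyme that converts serine to glycine, had -0.02, 0.02 and 0.58 in its 3 sets. Of the 10 genes with more than 1 set, 4 (CARS1, KARS1, VARS1 and SHMT2) had sets on either side of the controls' mean. KARS1 spanned -0.16 to 0.17 and VARS1 -0.09 to 0.11. Counted over probe sets, 9 of the 47 lay at least 0.25 above both controls on sgIL1RN1~3, where 10.5% of all 19070 sets did. The further 3 sets were those of CARS1, EPRS1 and SHMT2.

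The same array differed in its chip controls along 2 transcripts. For ACTB (beta-actin) the 5′ set lay 0.88 log2 units above the mean of the control arrays, the middle set 0.67 and the 3′ set 0.06. For GAPDH these were 0.75, 0.56 and 0.01. Between the control arrays the same 6 sets differed by -0.18 to 0.04. Of the 13 further sets of the 10 genes, 9 showed a higher difference on sgIL1RN1~3 than the set that stands for the gene (69.2%), where 54.8% of 7107 such sets over all genes did. In the comparison of the control arrays this was 6 of 13, and 48.2% over all genes. The positions of the probe sets on their transcripts were not used here, and the part of these chip controls in the differences of SARS1, AARS1 and the other genes was not tested.

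**Figure D2:**
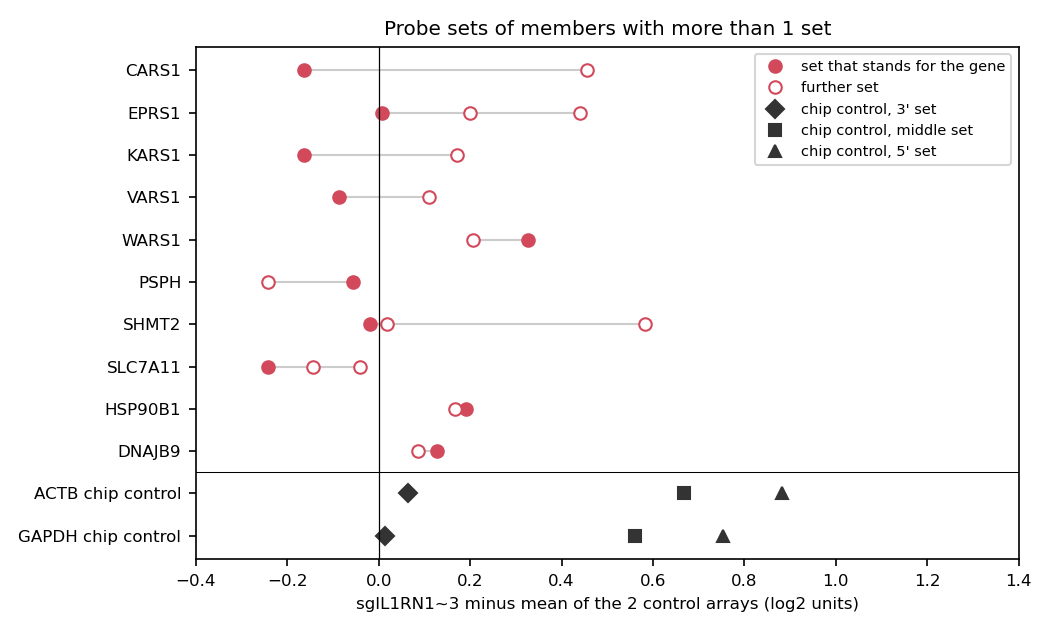
Difference of the sgIL1RN1~3 array from the mean of the 2 control arrays, in log2 units, for every probe set of the 10 genes with more than 1 set and for the chip controls of ACTB and GAPDH. Filled circles are the sets that stand for the gene and open circles further sets; those of CARS1 run from -0.16 to 0.46, and the 5′ chip controls lie at 0.88 and 0.75.

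Among the stress regulators, the transcription factor at the centre of the response was not higher with the IL1RN guides. ATF4 had log2 values of 11.15 with sgTetOmut, 11.10 with sgTetO and 10.98 with sgIL1RN1~3, the lowest of the 3. DDIT3, the pro-apoptotic factor CHOP, read 6.72, 6.77 and 6.76, so its sgIL1RN1~3 value fell between the controls. TRIB3, a pseudokinase that feeds back on ATF4, read 6.17, 6.36 and 6.35, and sgTetOmut was the lower array. CHAC1, which degrades glutathione and is a sensitive ATF4 target, read 4.29 on each control and 4.13 on sgIL1RN1~3. These are levels at which MYH7, a heart muscle gene taken as absent from these cells, also read (4.14, 4.24 and 4.14), so passing the background limit does not show expression there.

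ATF3, a stress-induced repressor, was the exception in this class, at 8.75 with sgTetOmut, 8.42 with sgTetO and 9.08 with sgIL1RN1~3. It was highest with the IL1RN guides, by 0.67 over sgTetO and 0.34 over sgTetOmut. The control arrays themselves differed by 0.33 in the same gene, the widest control difference of the 34, so the distance from sgTetOmut is of the size seen between controls. ATF3 was also the 1 listed gene at least 0.25 below both other arrays on sgTetO, where 4.05% of all genes were. Against sgTetO alone it was the 1 gene of the 34 past 1.5-fold, where 1.95% of all genes were higher by that much. None was 1.5-fold higher than with sgTetOmut, where 1.35% of all genes were. The median of the 5 measured regulators was 0.01 log2 units.

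The enzymes of amino acid and folate metabolism, mostly ATF4 targets, did not move together. PSAT1, the second enzyme of serine synthesis, read 6.00 on both control arrays and 6.47 with sgIL1RN1~3, 1.39-fold higher. Its controls held exactly the same deposited value, as did those of 7.67% of all genes, so they give no spread. PHGDH, the first enzyme of that pathway, read 10.92 with sgTetOmut, 10.74 with sgTetO and 10.98 with sgIL1RN1~3. Its control difference of -0.19 exceeded its distance of 0.06 from sgTetOmut. PSPH, the last step, read 10.40, 10.59 and 10.44 in the set that stands for it, and 5.72, 5.73 and 5.48 in the other. Of the 3 steps of serine synthesis, PSAT1 thus lay apart from both controls. By the sets that stand for them, PHGDH and PSPH lay within 0.06 and 0.04 of sgTetOmut. The other set of PSPH was lowest on sgIL1RN1~3.

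ASNS, the asparagine synthetase whose promoter stretch is shown above, read 10.35 with sgTetOmut, 10.32 with sgTetO and 10.39 with sgIL1RN1~3. Its range over the arrays was under 0.1 log2 units. MTHFD2, a mitochondrial folate enzyme, read 11.06, 11.03 and 10.87, lowest on sgIL1RN1~3. SHMT2, by the set that stands for it, read 12.79, 12.83 and 12.79. The median of the 6 enzymes was 0.02 log2 units, with a range from -0.18 to 0.47, and 0.10 with the mean of all probe sets of each gene.

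The 3 transporters went separate ways. SLC3A2, the heavy chain shared by SLC7A5 and SLC7A11, read 6.04 with sgTetOmut, 6.15 with sgTetO and 6.42 with sgIL1RN1~3. Its margin over both controls, 0.27, became 0.22 under quantile scaling. SLC7A11, the cystine light chain, read 9.32, 9.31 and 9.07 by the set that stands for it, 0.24 below the mean of the controls and the lowest of the 34 genes in this difference. Its other sets, 207528_s_at and 217678_at, held equal values on sgTetO and sgIL1RN1~3 to within 0.01. SLC7A5, the leucine light chain, read 9.50, 9.47 and 9.44, a narrow range. By the sets that stand for them, the heavy chain lay above both controls and SLC7A11 and SLC7A5 lay below both. For SLC7A5 the margin was 0.04, less than the 0.10 by which the control arrays differed in the median over all genes. For SLC7A11 the distance from sgTetO rests on the 1 set. The class median of -0.05 had the opposite sign to its mean of 0.01.

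ER chaperones and related genes stayed close to the controls. HSPA5 (BiP), the main ER chaperone, read 10.92 with sgTetOmut, 10.74 with sgTetO and 10.93 with sgIL1RN1~3, so that sgTetO was the lower array and the other pair differed by 0.01. HERPUD1, of ER-associated degradation, gave a like order, at 9.11 with sgTetOmut and with sgIL1RN1~3, the latter 0.11 above sgTetO. HSP90B1 (GRP94) read 7.54, 7.50 and 7.71 by 1 set and 6.95, 7.22 and 7.25 by the other, whose control values differed by 0.27. A brighter pair of sets that also lists a microRNA was left out of the counts. Its sets read 11.10, 11.10 and 11.21, and 9.06, 9.25 and 9.28. DNAJB9, a co-chaperone, read 9.11, 9.09 and 9.23, and its second set 8.23, 8.25 and 8.32. XBP1 read 7.59 on each control and 7.42 with sgIL1RN1~3, in the opposite direction. None of the 5 lay 0.25 apart from both controls. Their median difference was 0.10 log2 units from the mean of the controls, 0.14 from sgTetO alone and 0.01 from sgTetOmut alone.

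**Figure D3:**
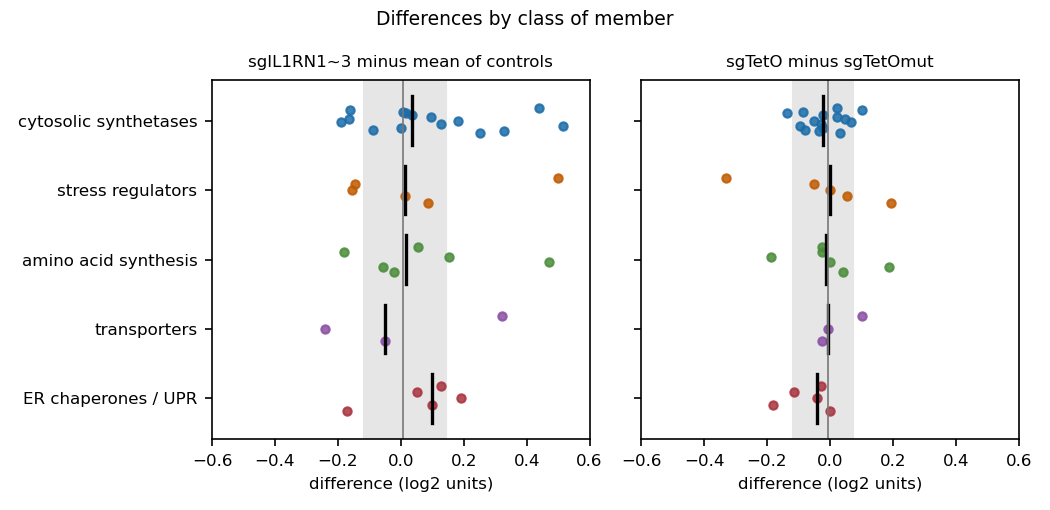
Differences in log2 units of each gene by class, for sgIL1RN1~3 minus the mean of the controls (left) and for sgTetO minus sgTetOmut (right). Points are genes, black bars class medians, and the grey band and line the middle 50% and the median of all 11963 genes; the class medians lie between -0.05 and 0.10 on the left and between -0.04 and 0.00 on the right.

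Set side by side, the 5 classes had median differences on sgIL1RN1~3 of 0.03 for synthetases, 0.01 for regulators, 0.02 for amino acid and folate enzymes, -0.05 for transporters and 0.10 for ER genes. The middle 50% of all genes, taken singly, ran from -0.12 to 0.14. A median over several genes spreads less than single genes do. That the 5 medians lie inside this band therefore does not show that a class was unchanged. Each of the first 4 classes held 1 or more genes past 0.25 log2 units and genes below the controls. The 6 higher genes were therefore spread over 4 classes and made up no whole class.

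The differences were also set beside the motif matches, with no test between genes with and without a match. Of the 28 measured genes with a promoter entry, the 11 with TGATGNAA, counting CARS1, NARS1, TARS1 and SLC3A2 whose match is not wholly before the start, had a median difference of 0.05 log2 units on sgIL1RN1~3, from -0.19 to 0.50. The 17 without it had 0.09, from -0.18 to 0.52. In each group 3 genes lay at least 0.25 above both controls: AARS1, ATF3 and SLC3A2 with the motif, SARS1, WARS1 and PSAT1 without. CHAC1 and ASNS, with the motif, differed by -0.15 and 0.05. The 3 genes with ER stress element I differed by 0.19 (HSP90B1), 0.10 (HSPA5) and -0.17 (XBP1).

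**Figure D4:**
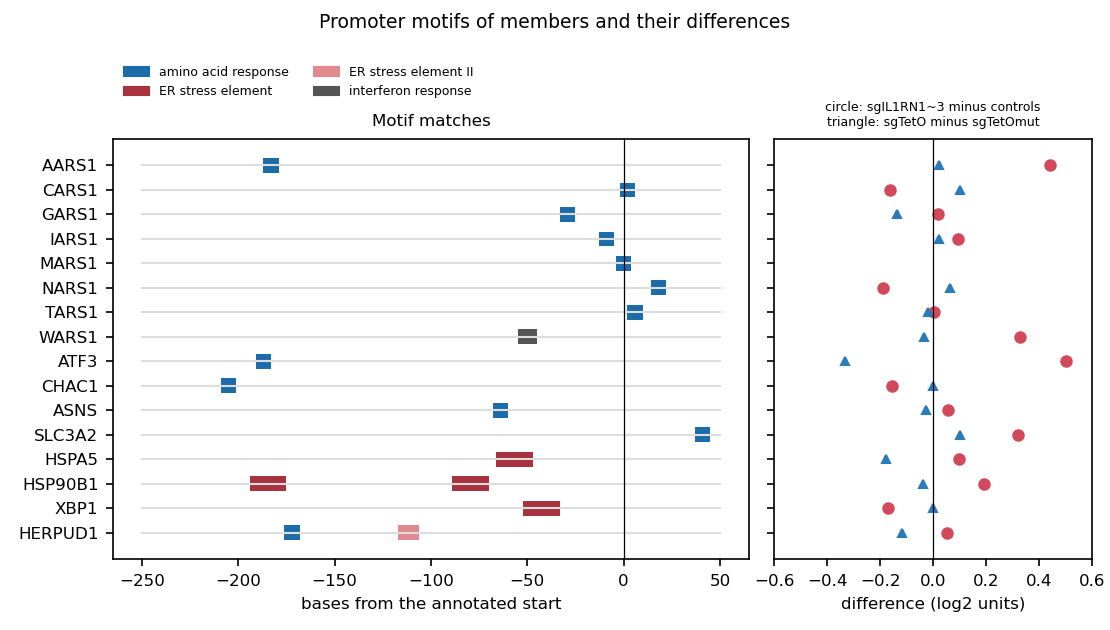
Motif matches in the promoters of listed genes, in bases from the annotated start (left), and the differences of the same genes in log2 units (right; circles, sgIL1RN1~3 minus the mean of the controls; triangles, sgTetO minus sgTetOmut). MARS1 has no point on the right; genes with the amino acid response motif lie from -0.19 to 0.50.

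The control guides differed little in these genes. Between sgTetO and sgTetOmut, 33 of 34 genes differed by under 0.25 log2 units, as did 85.2% of all genes, and the median absolute difference was 0.04, against 0.10 over all genes. No listed gene was 1.5-fold higher or lower with sgTetO, where 0.443% and 1.03% of all genes were. At 0.25 log2 units none was higher with sgTetO, where 6.2% of all genes were, and ATF3 alone was lower, where 8.56% were. By any margin, 15 of 34 were lowest on sgTetO, where 34.4% of all genes were, and 7 were highest there, where 25.2% were. None lay 0.25 above both other arrays on sgTetO, where 2.67% of all genes did. Of the 34 genes, 32 are at or above the median level of all genes. Among such genes 39.2% were lowest and 25.1% highest on sgTetO by any margin, and 0.853% lay 0.25 above both other arrays there. TRIB3 and PSPH, each 0.19 higher with sgTetO, and PHGDH and HSPA5, 0.19 and 0.18 lower, were furthest apart after ATF3.

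The sgTetOmut array carried a higher interferon response, and the genes listed here were read against it. On the 11 measured genes of a short interferon list the median of sgTetO minus sgTetOmut was -2.34 log2 units, and OAS2, a sensor of double-stranded RNA, was 3.45 above the mean of the other arrays. EIF2AK2 (PKR), an eIF2 kinase that is itself interferon-induced and binds double-stranded RNA, read 11.59 with sgTetOmut, 10.94 with sgTetO and 11.02 with sgIL1RN1~3. Its other set read 11.21, 10.68 and 10.67. Both sets put sgTetOmut highest, by at least 0.57 and 0.53. Against the mean of the other arrays EIF2AK2 was 0.62 higher, while the 34 genes ran from -0.24 to 0.13. None of the 34 lay 0.25 above or below both other arrays on sgTetOmut, where 3.14% and 2.37% of all genes did, and 1.69% and 0.502% of genes at or above the median level. Over the 47 probe sets 1 was above (a further set of SLC7A11) and 1 below (a further set of HSP90B1). By any margin 9 were highest there, where 28.5% of all genes were, and 8 were lowest, where 23.5% were. The 8 were AARS1, IARS1, YARS1, DDIT3, TRIB3, PSPH, SHMT2 and SLC3A2.

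WARS1 is an interferon-inducible synthetase, and its promoter stretch above holds the interferon core before the more downstream start. On the sgTetOmut array it lay between the other arrays, 0.04 from sgTetO, and 0.02 and 0.01 below sgTetO under quantile and cyclic loess scaling. Its sets read 8.27 and 6.15 with sgTetOmut, against 8.23 and 5.91 with sgTetO and 8.58 and 6.24 with sgIL1RN1~3. Both sets were highest on sgIL1RN1~3. The set 200628_s_at differed by 0.24 between controls, more than its 0.09 between sgIL1RN1~3 and sgTetOmut, and with the mean of both sets WARS1 stood 0.20 above both controls.

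**Figure D5:**
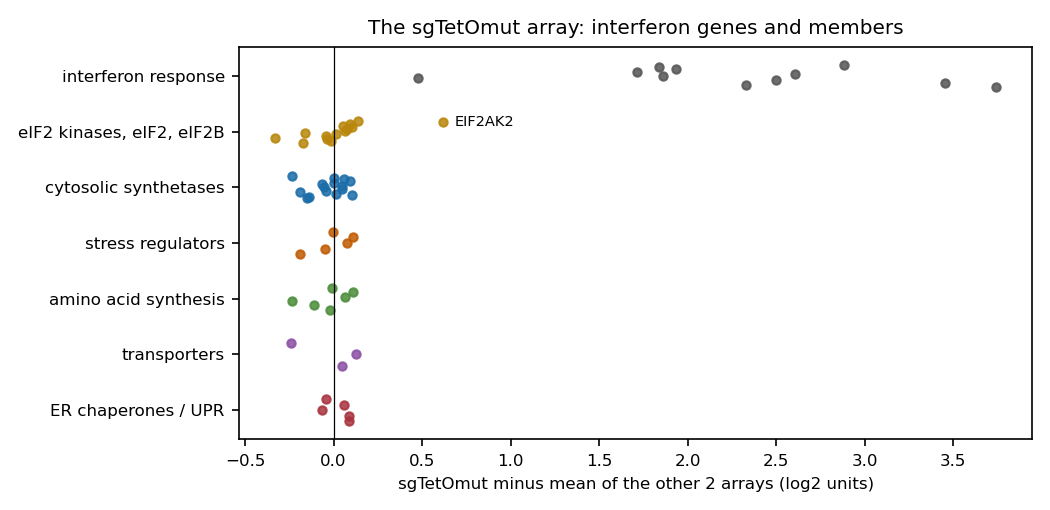
Difference of the sgTetOmut array from the mean of the other 2 arrays, in log2 units, for interferon genes, for genes of the eIF2 step and for the 34 genes by class; each point is a gene. EIF2AK2 lies at 0.62 and the interferon genes from 0.48 to 3.74, while the 34 genes lie from -0.24 to 0.13.

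Other genes of the pathway came from 5 lists of 93 entries, 73 of them measured. In the eIF2 step, 1 of 14 measured genes was 1.5-fold above both controls on sgIL1RN1~3 and none below, where 0.719% and 0.568% of all genes were. This was EIF2S3, the gamma subunit of eIF2, at 6.92 with sgTetOmut, 6.86 with sgTetO and 7.64 with sgIL1RN1~3, a difference of at least 0.72. EIF2B5, of the exchange factor for eIF2, read 6.47 on each control and 6.79. The ER kinase EIF2AK3 (PERK) read 6.82, 6.78 and 6.67, and PPP1R15A (GADD34), which returns eIF2 to its active form, read 4.99, 5.14 and 5.19. The median of the 14 was 0.03 log2 units. EIF2AK4, a further eIF2 kinase, and PPP1R15B were listed but not among the measured genes, so the eIF2 kinases were not all covered.

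Of the 22 other measured ATF4 targets, 1 was 1.5-fold above both controls on sgIL1RN1~3 and none below, beside the same shares of all genes, 0.719% and 0.568%. SLC1A5, a glutamine transporter, read 5.98 with sgTetOmut, 6.11 with sgTetO and 6.70 with sgIL1RN1~3. DDIT4, an inhibitor of mTOR signalling, read 10.20, 9.87 and 10.54, an order like that of ATF3. Here too sgTetO was lowest and the control arrays differed by 0.33. ALDH18A1, of proline synthesis, read 7.33, 7.43 and 7.74. At 0.25 log2 units 3 of the 22 were above both controls (these 3) and 1 was below, STC2, a secreted stress protein, at 10.49, 10.60 and 10.21. Of all genes 8.89% were above and 7.18% below by that margin. The median of the 22 was 0.04, and 0.08 with the mean of all probe sets.

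Of 25 other ER genes none was 1.5-fold apart from both controls, and at 0.25 log2 units 3 were above (HYOU1, PDIA3 and CREB3) and 1 below (SEC24D), close to the 8.89% and 7.18% of all genes. HYOU1, an ER chaperone, read 7.17 with sgTetOmut, 7.04 with sgTetO and 7.56 with sgIL1RN1~3. PDIA3, a disulphide isomerase, read 9.67, 9.50 and 9.98. SEC24D, of the vesicle coat that leaves the ER, read 7.64 with sgIL1RN1~3, 0.37 below both controls. The list's median was 0.04, and 0.13 with the mean of all probe sets. By any margin, 17 of the 25 were lowest on sgTetO, where 34.4% of all genes were, and 39.2% of genes at or above the median level.

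Of 10 measured mitochondrial synthetases none was 1.5-fold apart and 1 was above both controls by 0.25, where 8.89% of all genes were. This was FARS2, for phenylalanine, at 5.46 with sgTetOmut, 5.38 with sgTetO and 5.74 with sgIL1RN1~3. IARS2 read 9.84, 9.68 and 9.94, and YARS2 read 9.44, 9.34 and 9.15. Their median was -0.01. Of the remaining cytosolic proteins 2 were measured. AIMP1, a scaffold of the synthetase complex, read 11.73 on all 3 arrays. FARSA, a subunit of the phenylalanine enzyme, read 8.43, 8.49 and 8.42 by the set that stands for it, while its other set, 216602_s_at, read 6.44, 6.43 and 7.16.

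As a check of the cell line, 7 of 7 genes taken as marks of HEK293T cells (VIM, KRT8, KRT18, NEFL, NEFM, INA and PAX2) lay above background on all arrays. Of 10 genes of other cell types, 6 (PTPRC, CD3E, ALB, PECAM1, INS and GFAP) did not, while COL1A1, MYH7, CDH5 and HBB did. KRT8 read 3.95 with sgTetOmut, 3.95 with sgTetO and 4.32 with sgIL1RN1~3, near the values of MYH7. COL1A1 read 7.08, 7.14 and 7.30 in the same order. Passing the limit thus does not by itself show expression, and the check is a weak one.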

How the data were processed

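Total RNA of 3 HEK293T cultures was measured on 1 array each. The deposited log2 values of 22277 probe sets were made by the authors; the submitters' processing notes name affy. Its version, background correction and normalization are not given in the sources. The log2 unit was read from the values, which ran from 1.36 to 14.52. The sorted columns lay within 0.10 log2 units of their mean, so a shift shared by all genes would not show. Depth does not apply to arrays, and their number limits the precision.

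Probe sets were named from GEO's platform annotation: 19070 list 1 gene, 1043 several (not named) and 2164 none. Gene identifiers of 19058 were found in the GRCh38.p14 table. Where a gene had several sets that list it alone, the brightest of them on average represented it. A gene was called when 1.5-fold above, or below, both other arrays; 0.25 log2 units and 2-fold were alternatives. The 27 Bacillus subtilis sets gave the background, up to 3.29 on sgTetOmut and 3.40 on the others. Named were all measured genes of the set, and of each pathway list those past 1.5-fold and the 3 furthest from the controls' mean; a few further genes (EIF2AK3, PPP1R15A, CREB3, STC2) were named after their values were seen. The genes and lists were chosen with earlier results of these data known. Alternatives used limma 3.58.1 in R 4.3.3; other steps used Python 3.11.15, numpy 2.4.6 and pandas 2.3.3. The call script was tested on simulated data.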

Additional observations from a re-analysis of the deposited data

How the results depend on the processing

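The counts at 1.5-fold, 0 of 34 genes in each direction on each array, were also 0 under quantile and cyclic loess scaling, with the mean of all probe sets, with the set chosen on the control arrays, with 16 added to the linear values, within the brighter genes (mean at least the median), and with sgTetOmut alone as reference for sgIL1RN1~3. They were 0 too when sets that also list a microRNA were counted, an alternative chosen after seeing the data. The set chosen on the control arrays gave the same values for all 34 genes, and the brighter genes are 32 of these 34. Neither change could therefore raise a count. The largest margin over both controls on sgIL1RN1~3 was 0.47 (PSAT1), under the limit of 0.58 log2 units. It became 0.41 and 0.42 under quantile and cyclic loess scaling, so the other changes had little room to alter a count of 0. At 0.25 log2 units 6 genes were above both controls on sgIL1RN1~3, 1 was below both others on sgTetO and 1 was lower with sgTetO than with sgTetOmut, and with sgTetO alone as reference 1 gene was 1.5-fold higher; the limit or the reference itself makes these counts. Of the 6 genes, AARS1, SARS1 and ATF3 kept the margin under quantile scaling, cyclic loess scaling and with 16 added. Each of them has 1 probe set, so the changes of probe set and the limit to brighter genes could not move its value. SLC3A2 stood at 0.22 under quantile scaling, cyclic loess scaling and with 16 added, WARS1 at 0.20 with the mean of its sets, and PSAT1 lies under the median level. Of 140 class and list medians under alternatives, 139 moved by no more than 0.10, the median absolute difference of the control arrays over all single genes. Among these, the medians of the 5 classes with the set chosen on the control arrays could not move. That distance is wide for medians near 0, and some changed sign within it. The regulators went from 0.01 to -0.03 under quantile scaling and the enzymes from 0.02 to -0.02 within the brighter genes. The synthetases' median of sgTetO minus sgTetOmut went from -0.02 to 0.03 under quantile scaling. The median of the other cytosolic synthetase proteins, 2 genes, became 0.16 with the mean of all sets, through the second set of FARSA. With the mean of all sets the medians of the synthetases and the enzymes also went from 0.03 to 0.13 and from 0.02 to 0.10, and those of the other ATF4 targets and other ER genes from 0.04 to 0.08 and 0.13. No paired analysis was possible because each guide has 1 array. Low signal limits CHAC1, whose difference went from -0.15 to -0.08 with 16 added, and 1 array per guide limits all values.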

Other observations

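Probe sets that list a gene of the set together with a microRNA were left out of the counts. The set 217846_at, listed with QARS1 (the glutaminyl-tRNA synthetase) and MIR6890, read 10.16 with sgTetOmut, 10.17 with sgTetO and 10.53 with sgIL1RN1~3, 0.36 above the nearer control. The set 213672_at, listed with MARS1 (the methionyl-tRNA synthetase) and MIR6758, read 7.63 and 7.56 on the controls and at least 0.56 below both with sgIL1RN1~3. The other 2 sets listed with MARS1 lay between the controls, at 9.33, 9.09 and 9.22 and at 12.11, 11.99 and 12.05. The pair listed with HSP90B1 and MIR3652 differed by 0.12 and 0.11 from the mean of the controls, in the direction of the sets that list HSP90B1 alone.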
